A study of Homo sapiens with 8 samples.

Results

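The genes described here encode 39 enzymes of amino acid breakdown, the urea cycle and aromatic amine metabolism. They were taken as a fixed list of gene symbols and matched to rows of a count table of 86369 genes. Each of the 39 symbols matched 1 row, and 32 had enough counts to be tested. The table comes from HepG2, an established hepatocellular carcinoma line, whose cells received by lipofection either a short interfering RNA against NAT10 (siNAT10) or a negative control siRNA (siCtrl). RNA was collected 2 days after transfection, and 3' end libraries of polyadenylated RNA were made from it. Each group had 4 libraries, with replicates 1 and 2 labelled batch 1 and replicates 3 and 4 labelled batch 2. Both groups thus share the cell line, the transfection, the time and the batches, and differ in the siRNA. NAT10 is an RNA cytidine acetyltransferase, and the comparison asks which transcripts differ in level when it is depleted. The labels do not say whether the replicates were separate cultures, so p-values measure the spread between these libraries.

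Hepatocytes carry out most of the breakdown of amino acids in the body. Aminotransferases and glutamate dehydrogenase pass the amino nitrogen to glutamate, aspartate and ammonia, which the urea cycle turns into urea, and the carbon skeletons enter central metabolism through pathways particular to each amino acid. Several of these enzymes are known to be expressed at low levels in hepatoma lines, which have lost part of the hepatocyte program.

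The libraries held from 9731718 to 27977110 counts, of which these genes took between 0.513% and 0.644%. The knockdown left 31.6% of the siCtrl level of NAT10 (log2 fold change -1.66, edgeR adjusted p 2.0e-05). Its values did not overlap between the groups (two-sided exact permutation test on log2(CPM + 1), p = 0.029, the smallest that 70 arrangements can give; with exchange within batches only, exact p = 0.056, the smallest that 36 can give). Levels are in CPM, the usual depth-scaled unit of counts, with the TMM-scaled library size as the depth. A 3' end count does not grow with transcript length, so no length correction applies. The summed level of 10 hepatocyte and HepG2 markers was 9608 to 10082 CPM in siCtrl and 7719 to 8320 CPM in siNAT10, and its part in the results below was not tested. ALB had the largest part of that difference (4411 to 3422 CPM, edgeR adjusted p 0.072). In the list TF was called, and fell (edgeR adjusted p 0.023). AFP, TTR and FOXA2 were lower but not called (log2 fold changes -0.275, -0.30 and -0.31, edgeR unadjusted p 0.016, 0.013 and 0.0094). Each of these lay below both siCtrl libraries of the batch in every siNAT10 library. FGB went the other way, from 90.3 to 117 CPM (log2 fold change 0.37, edgeR adjusted p 0.17, unadjusted 0.012). HNF4A and SERPINA1 were not called (log2 fold changes 0.090 and -0.46, edgeR adjusted p 0.74 and 0.61). APOA1 stood at 837 and 829 CPM, and APOB at or near 0 in both groups. LYZ, a leukocyte marker, also fell (adjusted p 0.043 by edgeR). Of the markers of other cell types, COL1A2, DCN, PTPRC, SLC34A1 and UMOD had a count of 0 in every library. The 4 fibroblast markers summed to 0.29 to 1.38 CPM and the 3 endothelial markers to at most 0.80 CPM. The 3 leukocyte markers summed to 332 to 554 CPM, nearly all of it LYZ, and the 3 kidney tubule markers to 4.92 to 8.83 CPM.

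The siRNA comparison called 6 of the 32 tested genes (18.8%), against 2.28% of all 13840 tested genes (edgeR quasi-likelihood test with batch as a term, Benjamini-Hochberg adjusted p under 0.05 over all tested genes). DDC and GLDC rose, against a background of 0.816% of genes called higher. GSTZ1, CPS1, GOT1 and IVD fell, against a background of 1.46% called lower. DDC was known to change when the list was drawn up, and without it 5 of 31 were called (16.1%). The other members were also chosen with earlier results of these data known, so leaving out DDC does not remove that choice. The shares are thus a description and do not show that these pathways respond more than other genes. The median log2 fold change of the 32 tested genes was -0.0042, beside -0.0024 over all tested genes, with 16 above and 16 below 0. The number of calls depended on single libraries. It was 0 without siNAT10 replicate 2, where 0.534% of all genes were called. It was 3 without replicate 1 or 2 of siCtrl, or replicate 1 or 3 of siNAT10, where 0.742% to 1.26% were. No member was called without the batch term, where 0.108% of all genes were.

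**Figure D1:**
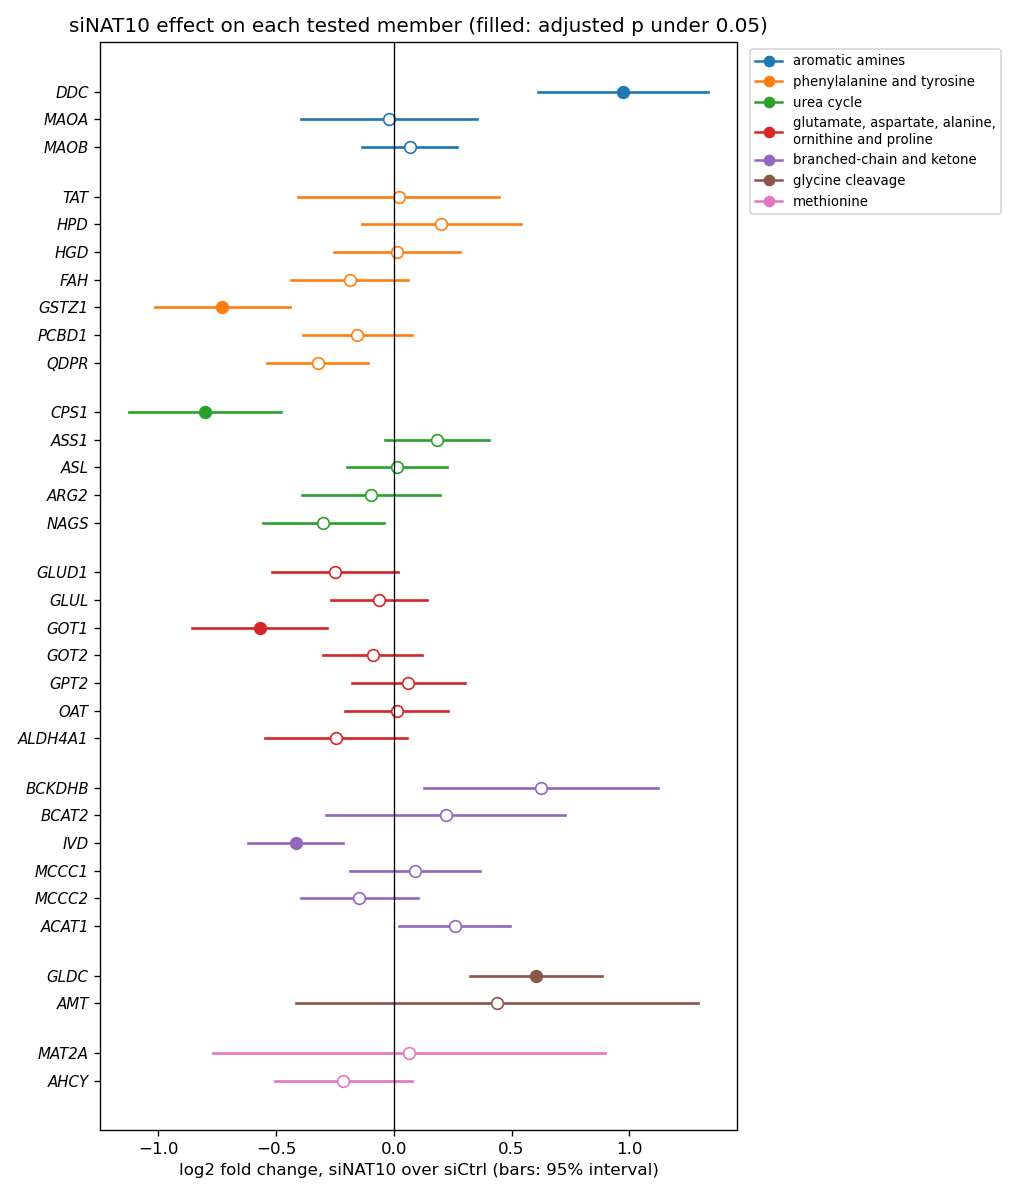
Fitted log2 fold change of siNAT10 over siCtrl (x axis) for each of the 32 tested genes, grouped and coloured by role; bars are 95% intervals and filled circles mark an adjusted p under 0.05. The 6 filled circles are DDC and GLDC to the right of 0 and GSTZ1, CPS1, GOT1 and IVD to the left, and the bars of AMT and MAT2A, which had few counts, are the widest.

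For 5 of these 6 genes, the 150 bases before the start of a RefSeq transcript are shown so that the loci can be compared. They come from RefSeq promoter windows on GRCh38.p14, written 5′ to 3′ on the gene's strand, whose start lies within 50 bases of the start of the GENCODE canonical transcript. CPS1 has no such window at its canonical start. Capitals mark motif matches on either strand. The CCAAT box was searched as CCAAT, and the binding site of Sp factors known as the GC box as GGGCGG. The half-site of HNF1, a liver transcription factor, was searched as GTTAAT. The TATA box was searched as TATAAA, and the site of C/EBP factors as TTGCNNAA, and neither had a match in these windows. In GOT1 the first CCAAT match and the GTTAAT match share 1 base.
DDC: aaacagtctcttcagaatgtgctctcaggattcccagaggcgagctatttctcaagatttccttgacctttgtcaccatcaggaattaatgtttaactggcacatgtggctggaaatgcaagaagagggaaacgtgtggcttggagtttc
GLDC: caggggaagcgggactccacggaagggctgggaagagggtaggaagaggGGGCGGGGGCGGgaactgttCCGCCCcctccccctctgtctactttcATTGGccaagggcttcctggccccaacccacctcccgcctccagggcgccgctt
GSTZ1: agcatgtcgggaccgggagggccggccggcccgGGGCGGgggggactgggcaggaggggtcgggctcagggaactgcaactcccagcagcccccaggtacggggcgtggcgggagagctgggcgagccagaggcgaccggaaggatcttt
GOT1: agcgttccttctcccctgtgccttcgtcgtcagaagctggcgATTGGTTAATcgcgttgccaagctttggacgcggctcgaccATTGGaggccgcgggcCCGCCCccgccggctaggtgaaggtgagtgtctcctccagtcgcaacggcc
IVD: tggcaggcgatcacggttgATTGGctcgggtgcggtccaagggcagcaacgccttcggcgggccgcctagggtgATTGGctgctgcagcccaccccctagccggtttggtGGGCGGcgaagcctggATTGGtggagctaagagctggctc
The gene bounds given below cover every annotated transcript, so the IVD window lies inside the gene and the GSTZ1 window runs past its first base. These windows lie at chr7:50565406-50565555, minus strand for DDC, chr9:6645730-6645879, minus strand for GLDC, chr14:77320886-77321035, plus strand for GSTZ1, chr10:99430625-99430774, minus strand for GOT1 and chr15:40405645-40405794, plus strand for IVD. The DDC window had 44.7% G and C bases and no exact match, while the other windows had between 64.7% and 74%. Variants of the motifs were not searched, so a window without a match may still hold one. CCAAT was in 3 of the 5 windows and in 12 of the 27 windows of tested members, against 28.3% of the 8563 windows of tested genes. GGGCGG was in 4 of the 5 and 24 of the 27, against 65.5%. GTTAAT was in the windows of GOT1 and PCBD1, against 1.51%, TATAAA in that of MAT2A, against 3.02%, and TTGCNNAA in none of the 27, against 2.76%. A match describes the letters only, and 3' end counts do not tell which start site was used; the RefSeq table also gives DDC a second, downstream start.

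Among the aromatic amine enzymes, DDC rose and both monoamine oxidases were not called. DDC (aromatic L-amino acid decarboxylase, ENSG00000132437; GRCh38 chromosome 7, 50458436 to 50565405, minus strand) makes dopamine from L-DOPA and serotonin from 5-hydroxytryptophan. It stood at 9.01, 7.36, 6.00 and 5.49 CPM in siCtrl replicates 1 to 4 and at 10.6, 16.8, 13.3 and 13.9 CPM in siNAT10 replicates 1 to 4. Every siNAT10 library lay above every siCtrl library, with replicate 1 the lowest and replicate 2 the highest of the siNAT10 libraries. The fitted log2 fold change was 0.97 ± 0.17 (SE; edgeR adjusted p 0.0079), and the 95% interval ran from 0.61 to 1.33. Within batches it was 0.75 in batch 1 and 1.24 in batch 2, and the batch by siRNA interaction had an unadjusted p of 0.16. The call was lost without siNAT10 replicate 2 (adjusted p 0.060 by edgeR).

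MAOA and MAOB encode the mitochondrial enzymes that oxidise dopamine, serotonin and other amines. MAOA stood at 6.11, 5.41, 4.40 and 5.49 CPM in the siCtrl libraries and 4.60, 5.56, 5.88 and 5.08 CPM in the siNAT10 libraries. MAOB stood at 71.7, 77.7, 64.0 and 60.3 CPM in the siCtrl libraries and 74.0, 77.8, 71.0 and 63.2 CPM in the siNAT10 libraries. Both pairs of ranges overlapped. Its log2 fold change came to -0.020 for MAOA (95% interval -0.39 to 0.35) and 0.067 for MAOB (95% interval -0.14 to 0.27), so that changes as large as that of DDC lay outside both intervals. The sign for MAOA was positive with library size alone or after thinning.

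**Figure D2:**
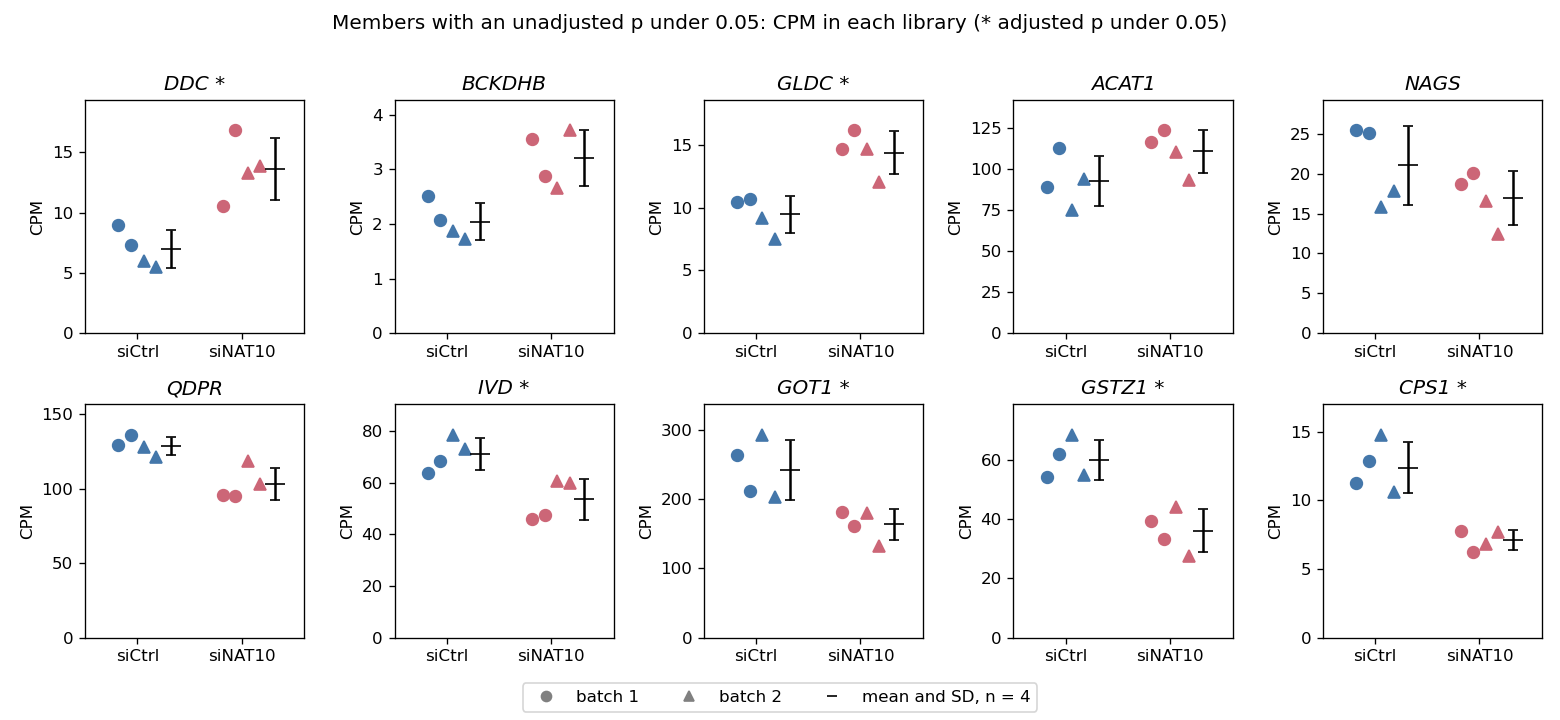
CPM (y axis, from 0) in each library for the 10 genes with an unadjusted p under 0.05, ordered by fold change; circles are batch 1, triangles batch 2, and black bars the mean and SD of the 4 libraries of a group. An asterisk marks the 6 genes with an adjusted p under 0.05, in each of which the siCtrl and siNAT10 ranges do not overlap.

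Tyrosine is degraded by TAT, HPD, HGD, GSTZ1 and FAH in that order to fumarate and acetoacetate. GSTZ1, the maleylacetoacetate isomerase of this route, was the gene of it that fell (ENSG00000100577; GRCh38 chromosome 14, 77320996 to 77331597, plus strand). It stood at 54.4, 62.0, 68.5 and 55.1 CPM in the siCtrl libraries and 39.5, 33.2, 44.2 and 27.7 CPM in the siNAT10 libraries, in the order of replicates. All siNAT10 libraries were below all siCtrl libraries, and siNAT10 replicate 4 was the lowest. On the log2 scale the difference was -0.73 ± 0.14 (SE; edgeR adjusted p 0.011), so 60.4% of the control level remained. GSTZ1 was the member called in batch 1 alone (adjusted p 0.017 by edgeR), and its log2 fold change was -0.68 there and -0.78 in batch 2. Without siNAT10 replicate 2 its edgeR adjusted p was 0.062.

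The neighbours of GSTZ1 in the route were not called. TAT, the aminotransferase that starts it, went from 5.09 ± 1.00 CPM to 5.28 ± 1.65 CPM (SD; n = 4 per group throughout). HPD, which makes homogentisate, went from 63.7 ± 19.7 CPM to 71.5 ± 11.8 CPM. HGD, which opens the ring of homogentisate, stood at 367 ± 71.3 CPM and 366 ± 65.7 CPM. FAH, whose substrate is the product of GSTZ1, stood at 79.0 ± 7.49 CPM in control and 69.7 ± 9.54 CPM in knockdown libraries. The log2 fold changes were 0.020, 0.20, 0.013 and -0.19. For FAH the values were 88.4, 80.7, 70.7 and 76.3 CPM in the siCtrl libraries and 56.9, 68.0, 77.3 and 76.6 CPM in the siNAT10 libraries. The siNAT10 libraries of batch 1 lay below every siCtrl library, while those of batch 2 lay above the siCtrl libraries of batch 2. The log2 fold change of FAH was -0.43 in batch 1 and 0.070 in batch 2, with an unadjusted interaction p of 0.028 and an adjusted p of 1.00 in edgeR's test.

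QDPR and PCBD1 regenerate tetrahydrobiopterin, a cofactor of aromatic amino acid metabolism, and PCBD1 also acts as a dimerization cofactor of HNF1. QDPR (ENSG00000151552; GRCh38 chromosome 4, 17460261 to 17512206, minus strand) stood at 129.7, 136, 128 and 121 CPM in the siCtrl libraries and 96.1, 95.4, 118 and 103 CPM in the siNAT10 libraries. The ranges did not overlap, but its log2 fold change of -0.32 (95% interval -0.54 to -0.11) did not pass adjustment (edgeR adjusted p 0.11, unadjusted 0.0056). PCBD1 went from 113 ± 14.9 CPM to 102 ± 7.97 CPM (log2 fold change -0.16). TDO2, which starts tryptophan breakdown in liver, had a count of 0 in every library.

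In the urea cycle, CPS1 fell and none of the other genes was called. CPS1 (ENSG00000021826; GRCh38 chromosome 2, 210477682 to 210679107, plus strand) makes carbamoyl phosphate from ammonia in mitochondria, the first and rate-limiting step of the cycle. It stood at 11.3, 12.9, 14.8 and 10.6 CPM in the siCtrl libraries and 7.77, 6.26, 6.82 and 7.72 CPM in the siNAT10 libraries. The siNAT10 libraries all lay below the siCtrl libraries and were close to each other. The fold change on the log2 scale was -0.80 ± 0.15 (SE; edgeR adjusted p 0.011) with 57.3% of the control level remaining, the largest fall among the 32 tested genes. It was nearly the same in the batches, at -0.79 and -0.81. These values rest on 79 to 316 counts a library, and the edgeR adjusted p was 0.067 without siNAT10 replicate 2 and 0.051 without siCtrl replicate 2.

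NAGS makes N-acetylglutamate, the obligate activator of CPS1. It stood at 25.4, 25.1, 15.8 and 17.8 CPM in the siCtrl libraries and 18.7, 20.1, 16.6 and 12.4 CPM in the siNAT10 libraries, ranges that overlapped. Both batch 1 libraries were higher than both batch 2 libraries within each group. Its log2 fold change of -0.30 (95% interval -0.56 to -0.040) did not pass adjustment (edgeR adjusted p 0.24, unadjusted 0.026). ASS1 joins citrulline and aspartate, and ASL splits the product into arginine and fumarate. ASS1 stood at 45.6 ± 6.47 CPM in control and 51.4 ± 5.26 CPM in knockdown libraries, and ASL at 57.9 ± 4.93 CPM and 58.2 ± 3.68 CPM. Their log2 fold changes were 0.18 (95% interval -0.038 to 0.40) and 0.012 (95% interval -0.20 to 0.22).

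ARG1 and ARG2 are the cytosolic and the mitochondrial arginase. ARG1, the hepatocyte enzyme, had at most 3 counts in any library. ARG2 stood at 41.5 ± 7.34 CPM in control and 38.9 ± 6.12 CPM in knockdown libraries (log2 fold change -0.10; 95% interval -0.39 to 0.20). OTC, which joins carbamoyl phosphate to ornithine, had at most 2 counts in any library. A count of 0 allows up to 0.104 to 0.293 CPM (3 counts, depending on the library). This limit covers counting error only. APOB, a marker of this line, was also at or near 0. SERPINA1, another hepatocyte and HepG2 marker, had enough counts to be tested but was low (group means 5.91 and 4.02 CPM, siCtrl first). Whether reads were lost in the counting was not tested. The low counts of ARG1, OTC and other untested genes were therefore not read as absent expression. Low levels of tested genes carry the same limit.

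Of the enzymes that handle glutamate, glutamine, aspartate, alanine, ornithine and proline, GOT1 fell and the other 6 tested genes were not called. GOT1 (ENSG00000120053; GRCh38 chromosome 10, 99396870 to 99430624, minus strand) is the cytosolic aspartate aminotransferase, which works with the mitochondrial GOT2 in the malate-aspartate shuttle. GOT1 stood at 264, 211, 293 and 203 CPM in the siCtrl libraries and 182, 161, 179 and 132 CPM in the siNAT10 libraries. The groups did not overlap, with siCtrl replicate 3 the highest and siNAT10 replicate 4 the lowest library. Fitted over both batches, the log2 fold change was -0.57 ± 0.13 (SE; edgeR adjusted p 0.036), or -0.47 in batch 1 and -0.67 in batch 2. The call was kept in 2 of the 8 fits that left out 1 library, those without siCtrl replicate 2 or siCtrl replicate 4, with edgeR adjusted p up to 0.14 in the rest.

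GOT2 stood at 139.7, 135, 120.1 and 115 CPM in the siCtrl libraries and 121, 136, 122 and 99.3 CPM in the siNAT10 libraries, ranges that overlapped. Its log2 fold change was -0.090 (95% interval -0.30 to 0.12); the difference between GOT1 and GOT2 was not tested. GLUD1, glutamate dehydrogenase, stood at 141, 137, 141 and 135 CPM in the siCtrl libraries and 106, 160.0, 100.2 and 102 CPM in the siNAT10 libraries. In GLUD1, 3 siNAT10 libraries lay below every siCtrl library, and siNAT10 replicate 2 lay above them all. The log2 fold change of GLUD1 was -0.25 (edgeR adjusted p 0.35) and -0.42 without that library (adjusted p 0.094).

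ALDH4A1, which oxidises the glutamate semialdehyde formed from proline and ornithine, had the highest level of the 39 genes. It stood at 2431 ± 316 CPM in control and 2049 ± 413 CPM in knockdown libraries (log2 fold change -0.25; 95% interval -0.55 to 0.057). GPT2, the mitochondrial alanine aminotransferase, stood at 948 ± 122 CPM and 984 ± 89.1 CPM. GLUL, glutamine synthetase, stood at 193 ± 58.4 CPM and 182 ± 42.2 CPM, and OAT, ornithine aminotransferase, at 50.3 ± 3.58 CPM and 50.7 ± 5.32 CPM. The log2 fold changes of these 3 genes were 0.061, -0.063 and 0.012, with 95% intervals of -0.18 to 0.30, -0.27 to 0.14 and -0.21 to 0.23. PRODH, the first enzyme of proline breakdown, had a count of 0 in every library.

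In branched-chain amino acid breakdown, BCAT2 removes the amino group, the BCKDHA and BCKDHB subunits form the E1 part of the branched-chain ketoacid dehydrogenase, and IVD, MCCC1 and MCCC2 then act on the leucine branch. IVD, isovaleryl-CoA dehydrogenase (ENSG00000128928; GRCh38 chromosome 15, 40405485 to 40435947, plus strand), fell. It stood at 64.0, 68.6, 78.7 and 73.1 CPM in the siCtrl libraries and 45.9, 47.5, 60.8 and 60.1 CPM in the siNAT10 libraries. Every siNAT10 library lay below every siCtrl library, and batch 2 was higher than batch 1 within each group. The joint fit gave a log2 fold change of -0.42 ± 0.10 (SE; edgeR adjusted p 0.031), the smallest of the 6 calls. It was -0.50 in batch 1 and -0.33 in batch 2. The call was kept in 2 of the 8 fits that left out 1 library (siCtrl replicate 4 or siNAT10 replicate 4), with edgeR adjusted p up to 0.12 in the rest, and was lost with library size alone (adjusted p 0.063).

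The next enzyme of the leucine branch, methylcrotonyl-CoA carboxylase, was not called in either subunit. MCCC1 stood at 12.9 ± 2.76 CPM in control and 13.7 ± 3.31 CPM in knockdown libraries, and MCCC2 at 45.3 ± 6.64 CPM and 40.9 ± 2.85 CPM. Their log2 fold changes were 0.091 and -0.15. ACAT1, the mitochondrial acetoacetyl-CoA thiolase of isoleucine and ketone metabolism, stood at 89.1, 113, 75.2 and 94.0 CPM in the siCtrl libraries and 116, 123, 110.1 and 93.2 CPM in the siNAT10 libraries. These ranges overlapped, and the log2 fold change of 0.26 (95% interval 0.022 to 0.49) did not pass adjustment (edgeR adjusted p 0.27, unadjusted 0.034).

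BCKDHB had few counts, from 24 to 83 a library. It stood at 2.51, 2.07, 1.87 and 1.73 CPM in the siCtrl libraries and 3.56, 2.89, 2.67 and 3.72 CPM in the siNAT10 libraries. The ranges did not overlap, and the log2 fold change of 0.62 (95% interval 0.13 to 1.12) did not pass adjustment (edgeR adjusted p 0.20, unadjusted 0.017). BCAT2 went from 2.90 ± 0.47 CPM to 3.36 ± 0.87 CPM (log2 fold change 0.22). BCKDHA had at most 4 counts in any library.

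The glycine cleavage system splits glycine in mitochondria and passes a carbon unit to folate; GLDC is its decarboxylase (P protein), AMT its T protein and GCSH its H protein. GLDC (ENSG00000178445; GRCh38 chromosome 9, 6532467 to 6645729, minus strand) rose. It stood at 10.4, 10.7, 9.18 and 7.51 CPM in the siCtrl libraries and 14.7, 16.1, 14.7 and 12.03 CPM in the siNAT10 libraries. The lowest siNAT10 library, replicate 4, lay above the highest siCtrl library. This was a log2 fold change of 0.60 ± 0.13 (SE; edgeR adjusted p 0.024), or 0.55 in batch 1 and 0.67 in batch 2. The call was kept in 2 of the 8 fits that left out 1 library (siCtrl replicate 3 or siNAT10 replicate 4); in the other fits the edgeR adjusted p reached 0.094.

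AMT had 12 to 27 counts a library and a log2 fold change of 0.44 whose 95% interval, -0.42 to 1.29, is too wide to place it. GCSH had a count of 0 in every library. In the methionine cycle, MAT2A makes S-adenosylmethionine and AHCY removes S-adenosylhomocysteine. AHCY stood at 645, 502, 828 and 669 CPM in the siCtrl libraries and 542, 559.6, 694 and 463 CPM in the siNAT10 libraries, overlapping ranges with a log2 fold change of -0.22 (95% interval -0.51 to 0.075). MAT2A had 7 to 28 counts a library and a log2 fold change of 0.064 (95% interval -0.77 to 0.90). CBS, which leads homocysteine to cysteine, had at most 1 count in any library.

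Other annotated genes overlap the 3' ends of some of these genes. BCKDHA and AMT share 99.8% and 100% of their last 500 transcript bases with exons of another annotated gene on the same strand. Among protein-coding genes with at least 90% of that stretch shared in this way, 92.1% of 1057 had under 80 counts over the 8 libraries, against 44.1% of the 16320 genes with no overlap. The level of BCKDHA and AMT was therefore not read as their expression. MAT2A and PRODH are covered by exons on the opposite strand, a class in which 28.2% of 625 genes had under 80 counts. TAT, ARG2 and MCCC1 are covered in part on the opposite strand (49.8%, 54.6% and 14.4%), and since the strand setting is not stated, reads of such partners cannot be told apart. DDC, GLDC, GSTZ1, CPS1, GOT1 and IVD had no exon of another gene over that stretch. Some genes have pseudogenes named after them, 14 for ASS1 and 6 each for AHCY, GOT2 and GCSH. GLUD1 and GLUL have 4 each, and GLDC, ASL and MAT2A have 1 each. These genes are uncertain to the extent that reads mapping to several places were dropped. The pseudogene rows themselves had 0 counts. Copies under other kinds of name were not searched for, so other members, CBS among them, may carry the same limit.

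In all, 10 of the 32 tested genes had an unadjusted p under 0.05 (31.2%), against 15.7% of all tested genes, 4 with a fold change above 0 (7.46% of all tested genes) and 6 below (8.24%). The ranges of the 4 siCtrl and 4 siNAT10 libraries did not overlap for 8 genes (25%), against 5.40% of all tested genes. These were the 6 called genes with QDPR and BCKDHB. The list was drawn up with earlier results of these data known, which limits these shares as well. Among the 26 genes not called, the 95% interval lay within 0.5 of 0 on the log2 scale for 16. In bulk RNA, fewer cells with a transcript and less of it per cell cannot be told apart.

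The siRNA effect was then set side by side in the batches, each with its own siCtrl libraries. Of the 32 genes, 20 had the same sign in both (62.5%), beside 61.9% of all genes fitted in both. All 6 called genes were among the 20, but they were called on the same libraries. No batch by siRNA interaction was called, at 0 of the 32 genes and 0% of all tested genes (edgeR adjusted p under 0.05), and DESeq2 called none of these genes either. At an unadjusted p under 0.05 it was FAH alone, 1 of 32, against 3.04% of all tested genes.

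**Figure D3:**
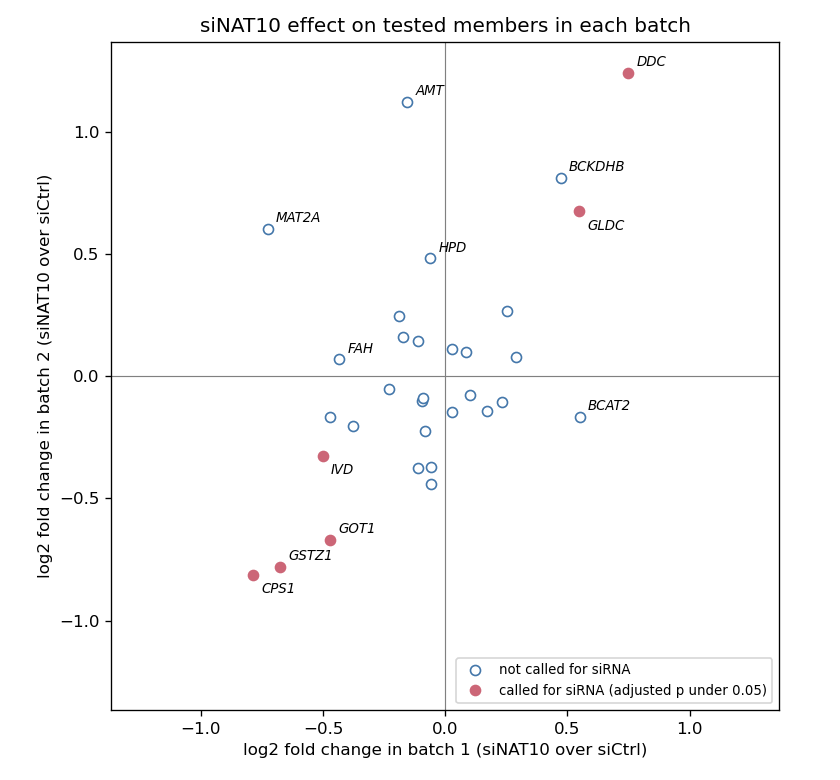
Fitted log2 fold change of siNAT10 over siCtrl in batch 1 alone (x axis) and batch 2 alone (y axis), 2 libraries against 2 in each, for the 32 tested genes; filled points are the 6 genes called in the joint fit. DDC, GLDC and BCKDHB lie in the upper right and CPS1, GSTZ1, GOT1 and IVD in the lower left, while AMT and MAT2A, with few counts, lie on opposite sides of 0 in the batches.

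The batches themselves were also compared. With siRNA as a term of the fit, 5 of 32 (15.6%) were called between batch 2 and batch 1, where 25.3% of all tested genes were. Of the 5, 3 were higher in batch 2 (13% of all tested genes) and 2 lower (12.2%). GLUL was higher in batch 2, with a mean of 144 CPM over batch 1 and 230.1 CPM over batch 2 (log2 fold change 0.67 ± 0.10, SE; edgeR adjusted p 0.00014). Its values were 144, 142, 228 and 257 CPM in the siCtrl libraries and 153, 139, 216 and 220.4 CPM in the siNAT10 libraries, so that both batch 2 libraries of each group lay above both batch 1 libraries. GLUL is known as a beta-catenin target of hepatocytes around the central vein.

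NAGS and MCCC1 were lower in batch 2. NAGS went from a mean of 22.3 to 15.7 CPM (log2 fold change -0.50; edgeR adjusted p 0.0069). MCCC1 went from 15.7 to 10.9 CPM (log2 fold change -0.52; edgeR adjusted p 0.0078). IVD was the gene called for both terms, and its batch difference of 0.28 (edgeR adjusted p 0.039) was smaller than its siRNA difference. MAT2A was also called higher in batch 2 (0.51 against 1.91 CPM), on 7 to 28 counts a library. With the strand setting not stated, these counts cannot be told apart from reads of GGCX, the gene opposite its 3' end. In 15 of the 32 genes the batch difference was larger in size than the siRNA difference. With signs ignored, batch differences had a median of 0.195 and siRNA differences 0.194 in these genes. Over all tested genes these medians were 0.262 and 0.157. None of the 6 genes called for siRNA was among the 15. They were picked for their siRNA difference in the same fit, so nothing is concluded from that. Without siNAT10 replicate 4, 8 of the 32 were called between the batches, where 25.7% of all genes tested in that fit were; that share is near the background.

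**Figure D4:**
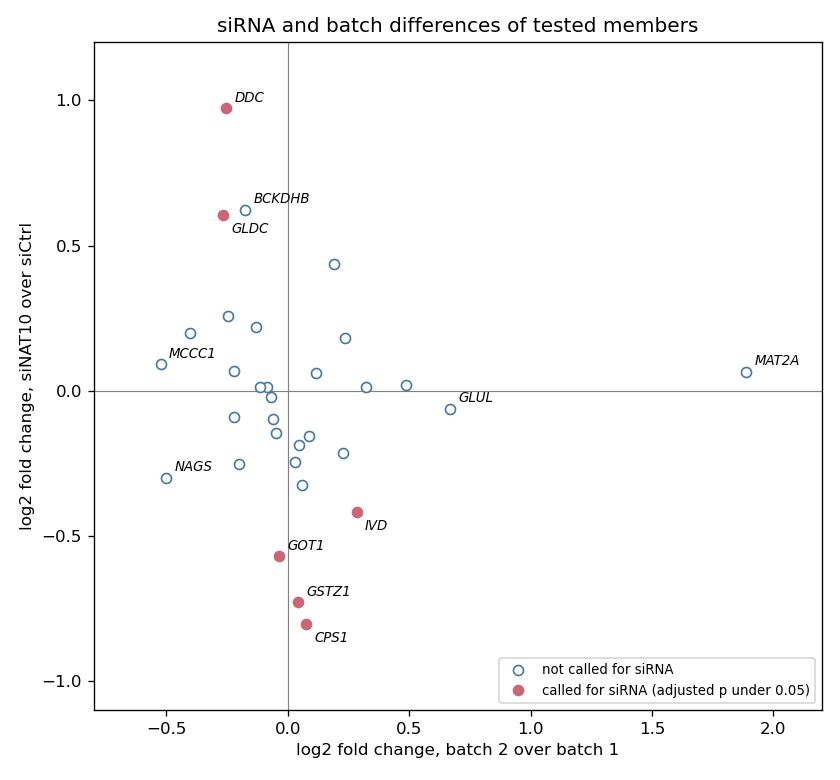
Fitted log2 fold change of batch 2 over batch 1 (x axis) and of siNAT10 over siCtrl (y axis) for the 32 tested genes; filled points are the 6 genes called for siRNA, and genes called for either term, with BCKDHB, are named. The genes called for siRNA lie between -0.27 and 0.28 on the batch axis, while GLUL and MAT2A lie to the right of them and NAGS and MCCC1 to the left.

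Other genes of the same pathways were counted from a second list of 83 symbols that holds none of the 39 genes. Of these, 82 matched 1 row, 68 were tested and 3 were called (4.41%, against 2.28% of all tested genes), 2 higher and 1 lower; the median log2 fold change of the 68 was 0.019. FTCD, which takes the last step of histidine breakdown and hands a carbon unit to folate, rose from 60.1 ± 16.7 CPM to 80.2 ± 13.5 CPM (log2 fold change 0.44; edgeR adjusted p 0.036). SARDH, which oxidises sarcosine to glycine, fell from 19.5 ± 0.48 CPM to 10.2 ± 2.45 CPM (log2 fold change -0.93 ± 0.15, SE; edgeR adjusted p 0.0048). Both FTCD and SARDH lay beyond both siCtrl libraries of the batch in every siNAT10 library, as did 14.7% of all tested genes. The count of 3 was 1 without siCtrl replicate 1 or siNAT10 replicate 2, where 0.742% and 0.534% of all genes were called. It was 5 by DESeq2, which called 4.66% of all genes. This second list, too, was chosen with earlier results of these data known.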

How the data were processed

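Reads of the 8 libraries were aligned by the authors to GRCh38 with STAR 2.7.9a and counted with featureCounts, per the labels; the submitters' processing notes also name Trim Galore 0.6.10 and cutadapt 3.5. The annotation release, strand setting and treatment of reads with several places are not given in the sources used here. The deposited values are whole-number counts per gene. The kit's orientation is given both as forward and as reverse in the labels. Symbols, positions and exons came from GENCODE 44, which matched 61458 of 86369 identifiers. Counts were tested with edgeR 4.0.16 in R 4.3.3: filterByExpr (minimum count 10), TMM scaling, glmQLFit and glmQLFTest with batch and siRNA, or their interaction. Standard errors were taken from the F statistic. NAT10 was also tested by exact permutation of log2(CPM + 1). Alternatives were DESeq2 1.42.0, other scalings, filters and model terms, thinning to the smallest library, each batch alone and leaving out each library. Same-numbered libraries deviated together from their group means (correlations 0.392, 0.384, 0.451 and 0.356 for replicates 1 to 4). Batch was left in these deviations and same-numbered libraries share a batch, so the correlations do not show pairing. The highest correlation with another number was 0.495, 0.375, 0.14 and 0.334, above that with its own number for replicate 1. A fit that blocks on the number was run. Every member is named; those with an unadjusted p under 0.05 are given by library, and of the second list the called genes are named, except 1 that is not reported here. The members, lists and tests were chosen with earlier results of these data known. The script was tested on simulated data. With no molecular identifiers named, depth statements cover counting error only.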

Additional observations from a re-analysis of the deposited data

Results flagged for a closer look

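In each group of 4 libraries, the gap between the highest or lowest library and its nearest neighbour was compared with the group's range for every tested gene. Of 64 such groups 2 stood out, where chance gives about 3.2 (1 in 20). GLUD1 was at 160.0 CPM in siNAT10 replicate 2, against 100.2 to 105.8 CPM in the other siNAT10 libraries. BCAT2 was at 3.607 CPM in siCtrl replicate 3, against 2.601 to 2.704 CPM in the other siCtrl libraries.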

How the results depend on the processing

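The 6 calls (2 higher, 4 lower) fell to 0 both with no batch term and within batch 2. They fell to 1 (0 higher, 1 lower) in batch 1 alone, where 2 libraries stood against 2. Of all genes tested, 0.108% were called with no batch term and 1.19% in batch 1 alone. Batch 2 alone called 0 of 13433 genes, so its 0 says nothing particular to these members. Without 1 library the member calls ran from 0 to 5, the higher calls from 0 to 2 and the lower calls from 0 to 4. In those fits 0.534% to 2.02% of all genes were called. With the replicate number as a block, 6 were called, and the block changed no call. RLE scaling, no filter, a mean of at least 10 counts and DESeq2 (which gave 30 of the 32 an adjusted p) also gave 6. Library size alone and thinning gave 5, both without IVD. Of all genes, DESeq2 called 4.66%, the replicate block 3.28% and the rest of these fits 2.07% to 2.23%. The batch calls were 5 (3 higher, 2 lower in batch 2). They were 2 in siCtrl alone (1 and 1), where 9.22% of all genes were called. They were 2 in siNAT10 alone (2 and 0), where 8.62% were. Without 1 library the batch calls ran from 4 to 8 (2 to 5 higher, 2 to 3 lower), and those of all genes from 18% to 25.7%. The interaction gave 0 in every fit that could hold it. The second list gave 0 without the batch term or in batch 2 alone, 5 by DESeq2, and 1 to 4 without 1 library. The shares of all genes called for siRNA in these fits, given above, apply here too. The median of all genes was 0.0063 with RLE, 0.037 with library size alone, 0.0070 by DESeq2, and -0.0055 to 0.0068 without 1 library. For NAT10, exchange within batches gave an exact permutation p of 0.056, the smallest that 36 arrangements allow. Every called gene kept its direction in all 18 alternatives. Their ranges did not overlap between the groups, so refits on the same libraries could hardly have reversed it. Some uncalled genes changed sign. With library size alone MAOA was 0.017, after thinning MAOA was 0.034 and MAT2A -0.11, without the batch term HGD was -0.0041 and with the replicate block -0.0014. In batch 1 alone the log2 fold changes were -0.19 (TAT), -0.062 (HPD), -0.11 (ASL), 0.027 (GLUL), -0.15 (AMT) and -0.73 (MAT2A); in batch 2 alone, 0.16 (MAOA), -0.14 (HGD), 0.070 (FAH), -0.11 (GPT2), -0.075 (OAT) and -0.17 (BCAT2). Without 1 library, MAOA ran from -0.10 to 0.066, TAT from -0.077 to 0.18, HGD from -0.13 to 0.11, ASL from -0.026 to 0.075, ARG2 from -0.20 to 0.023, GPT2 from -0.035 to 0.13, OAT from -0.055 to 0.073 and MAT2A from -0.17 to 0.35. The cause of these changes was not tested.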
